A study of Mus musculus with 26 samples.

Results

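The 9 genes described here encode transcription factors of the developing and adult thalamus, and they were followed across mouse thalamic neurons that project to different parts of the cortex. They were taken by name from the columns of the deposited count table: Tcf7l2, Lef1, Gbx2, Lhx2, Lhx9, Foxp2, Zic1, Zic4 and Sox2. All 9 were found among the 36589 genes of the table. The study carried a tracer back from the cortex along the axons of thalamic neurons, so that each labelled cell body could be assigned to 1 of 5 projection systems: auditory, motor, prefrontal, somatosensory or visual. All cells came from male mice with a recorded age of 64 to 112 (70 to 104 for auditory, 69 to 112 for motor, 70 to 91 for prefrontal, 64 to 78 for somatosensory and 69 to 104 for visual cells). The sources used here do not give the unit of that age, the strain or the tracer. The tissue was microdissected from slices held with activity blockers, and fluorescent neurons were picked by hand.

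The thalamus relays sensory and motor signals to the cortex, and its glutamatergic relay neurons are specified in the caudal diencephalon of the embryo. Tcf7l2 and Lef1 encode HMG-box proteins that bind DNA with beta-catenin at the end of the canonical Wnt pathway, and Tcf7l2 is known as a regulator that thalamic neurons keep into adult life. Gbx2 is a homeobox gene that newly born thalamic neurons switch on, Lhx2 and Lhx9 are related LIM-homeobox genes that need cofactors of the Ldb family, and Foxp2, Zic1, Zic4 and Sox2 encode a forkhead, a pair of zinc-finger and an SRY-type HMG-box protein.

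The 1972 cells held 20509 to 683775 unique molecular identifiers (UMIs, a tag that counts captured transcripts), with a median of 87292. Adding up the cells of each animal within a system gave 21 sums with 4317156 to 20322775 UMIs: 4 from visual neurons (435 cells), 3 from somatosensory (285), 4 from prefrontal (388), 5 from motor (484) and 5 from auditory neurons (380). The sum of an animal is the replicate, so each p-value between systems rests on the spread between these sums. For the cell classes compared further below, it rests on the spread of class sums with the animal and system as a block. The sums of a system came from 3 sort dates, or 2 for somatosensory neurons, so animals of a system shared sort dates. One animal ID of the 20 was listed in 2 systems (auditory replicate 5 and visual replicate 1) with different sort dates and ages, and those 2 sums were counted separately. Results without either are among the leave-one-out values. All somatosensory sums were sequenced in batch 2 and all visual sums in batch 3, whereas the other systems were spread over 3 batches. The vesicular glutamate transporter Slc17a6, a marker of relay neurons, was at 519 to 1008 CPM (the gene's UMIs scaled to the same total in every sum) over the sums. Gad1 and Slc32a1 of GABA neurons, Neurod6 of cortical neurons, Cldn5 of endothelium and Cx3cr1 of microglia were at most 0.509 CPM in any sum. Other markers of these and other cell types were seen: Gad2 reached 21.3 CPM and the 8-gene GABA neuron list 72.0 CPM in 1 auditory sum. The cortical neuron list came to 6.25 to 51.7 CPM. The microglia list came to 80.0 to 159.8 CPM, nearly all of it C1qb, and the oligodendrocyte list to 12.6 to 399.9 CPM, with high sums in all systems but the prefrontal (at most 113 CPM). The astrocyte list, mostly the transporter Slc1a2, came to 326 to 557 CPM in motor, 296 to 439 in prefrontal, 146 to 332 in somatosensory, 147 to 249.7 in auditory and 177 to 208 CPM in visual sums, with Aqp4 and Gja1 at most 5.02 CPM. In 34 cells at least 3 markers of another type were found, 31 of them oligodendrocyte-marked. Without these 34 cells the 36 fold changes followed across settings kept their direction and side of the threshold. The part of the Slc1a2 and C1qb signal in the results was not tested. Of the 375 cell barcodes 372 occurred on more than 1 plate, so cells were told apart by plate and barcode together. The habenula list (Pou4f1, Tac2, Chat, Gpr151 and Nwd2) summed to 21.6 to 67.2 CPM in prefrontal sums and to 0.285 to 10.8 CPM in the others. Gpr151 made up most of that prefrontal value at 42.1 ± 21.8 CPM (SD, n = 4), while Pou4f1, Tac2 and Chat, which define habenula neurons, averaged 0.443, 0 and 0.0552 CPM there. The part of the Gpr151 signal in the prefrontal results below was not tested.

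The start regions of 8 of the 9 genes were found in RefSeq (build GRCm38.p6), with 13 annotated starts between them. The 4 below are printed because they belong to the genes with the widest differences between systems (Gbx2, Lhx2, Lhx9) and to the Wnt effector Lef1. Lef1 was lower in auditory and prefrontal neurons, where Gbx2 and Lhx2 were higher. Lhx9 passed as higher in prefrontal neurons alone, and its auditory log2 fold was 0.13 ± 0.13 (SE, edgeR adjusted p = 0.637). Each run gives the 250 bases before the start, 5′ to 3′ on the gene's own strand. Capitals mark CAAAG or its reverse complement CTTTG, the core that TCF and LEF proteins are known to contact. The windows are chr1:89931177-89931426 on the minus strand for Gbx2, chr3:131110047-131110296 on the plus strand for Lef1, chr2:38339031-38339280 on the plus strand for Lhx2 and chr1:138842445-138842694 on the minus strand for Lhx9.
Gbx2: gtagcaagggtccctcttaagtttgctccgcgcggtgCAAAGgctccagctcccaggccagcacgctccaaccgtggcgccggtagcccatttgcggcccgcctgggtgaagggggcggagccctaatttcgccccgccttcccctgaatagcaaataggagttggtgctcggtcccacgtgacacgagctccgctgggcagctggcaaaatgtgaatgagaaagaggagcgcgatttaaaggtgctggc
Lef1: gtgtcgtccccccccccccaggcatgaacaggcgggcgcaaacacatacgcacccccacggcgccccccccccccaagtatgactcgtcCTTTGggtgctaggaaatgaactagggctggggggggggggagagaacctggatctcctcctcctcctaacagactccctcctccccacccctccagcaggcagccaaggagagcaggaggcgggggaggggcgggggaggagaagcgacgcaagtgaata
Lhx2: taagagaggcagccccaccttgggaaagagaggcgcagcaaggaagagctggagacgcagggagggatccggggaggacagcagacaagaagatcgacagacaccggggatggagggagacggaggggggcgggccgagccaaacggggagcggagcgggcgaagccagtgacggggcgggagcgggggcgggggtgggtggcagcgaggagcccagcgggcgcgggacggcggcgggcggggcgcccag
Lhx9: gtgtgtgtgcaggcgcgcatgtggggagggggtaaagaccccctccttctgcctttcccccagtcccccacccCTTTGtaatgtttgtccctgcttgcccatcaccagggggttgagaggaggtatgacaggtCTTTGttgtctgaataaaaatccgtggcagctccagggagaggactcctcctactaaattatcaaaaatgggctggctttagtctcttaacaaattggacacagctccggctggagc
The core was found on either strand in 10 of the 13 windows, and in 48.6% of 32851 RefSeq windows of the same length. The 13 windows are not all separate regions, since some genes have more than 1. The Lef1 windows chr3:131110047-131110296 and chr3:131110073-131110322 overlap and share a CTTTG. The Lhx2 window printed above held none, and another Lhx2 window, chr2:38351058-38351307, held 1. The Lhx9 window held 2, and it lies inside the span GENCODE gives for the gene (138825186 to 138848577). The longer form ATCAAAG (reverse complement CTTTGAT), which contains the core, was in 0 of the 13 windows and in 3.21% of all. TAATTA, a palindrome that many homeodomain proteins bind, was in 0 of the 13 and in 4.84% of all. The median GC content was 66.0% in the 13 windows and 52.4% in all windows. These matches describe letters only, and no binding was measured.

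Of the 9 genes, 8 passed an F test over the 5 systems (edgeR's quasi-likelihood method, batch as a covariate, Benjamini-Hochberg adjusted p under 0.05). Over all 17211 genes tested, 12.6% passed. The genes that passed were Lhx9 (adjusted p = 4.52e-06), Gbx2 (2.73e-05), Lef1 (0.000104), Lhx2 (0.000376), Zic4 (0.00268), Sox2 (0.00459), Tcf7l2 (0.00571) and Zic1 (0.0418). Foxp2 did not pass (adjusted p = 0.111). Since cells were pooled in each sum, fewer cells that use a gene and less RNA per cell cannot be told apart in these levels. One system at a time was then compared with the average over the remaining systems, and 14 of 45 such tests on the 9 genes passed, beside 4.28% over all genes. Auditory neurons held 5 of these calls (7.97% of all genes passed), 4 higher (4.28%) and 1 lower (3.69%). Prefrontal neurons held 6 (9.17%), 4 higher (5.19%) and 2 lower (3.97%). Motor neurons held 1 higher (3.91% passed, 2.32% higher and 1.59% lower), somatosensory neurons 2 (0.232%), both lower, and visual neurons 0 (0.145%). The median log2 fold of the 9 genes was 0.49 for auditory, 0.28 for prefrontal, 0.16 for visual, -0.16 for motor and -0.59 for somatosensory neurons, while over all genes it lay between -0.01 and 0.03. With no filter on low counts the 45 tests gave 26 calls, and when cells were added up by sorting day rather than by animal they gave 8. The shares over all genes under these settings are not given here. The 6 calls lost by sorting day were Lef1 (edgeR adjusted p = 0.105) and Sox2 (0.0636) in auditory, Lef1 in motor (0.0728), Zic4 in prefrontal (0.101), and Lhx2 (0.143) and Lhx9 (0.0584) in somatosensory neurons.

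Between single systems, 29 of 90 tests on the 9 genes passed, beside 3.72% over all genes and pairs. Auditory neurons differed from motor neurons in 4 of the genes (8.52% of all genes passed), from prefrontal neurons in 4 (4.54%), from somatosensory neurons in 5 (4.78%) and from visual neurons in 1 (0.761%). Prefrontal neurons differed from motor (10.8%), somatosensory (4.03%) and visual neurons (3.05%) in 5 genes each. None of the 9 genes passed between motor and somatosensory (0%), motor and visual (0.686%) or somatosensory and visual neurons (0.0465%). In these 3 pairs 2, 4 and 5 of the genes had an unadjusted edgeR p under 0.05, beside 665, 1877 and 1162 of all 17211 genes. DESeq2 called 1, 2 and 2 of the 9 genes, beside 29, 370 and 121 of all genes. By gene, the calls were 6 for Gbx2, 5 each for Lef1 and Lhx9, 3 each for Tcf7l2, Lhx2 and Zic4, 2 for Sox2 and 1 each for Foxp2 and Zic1.

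**Figure D1:**
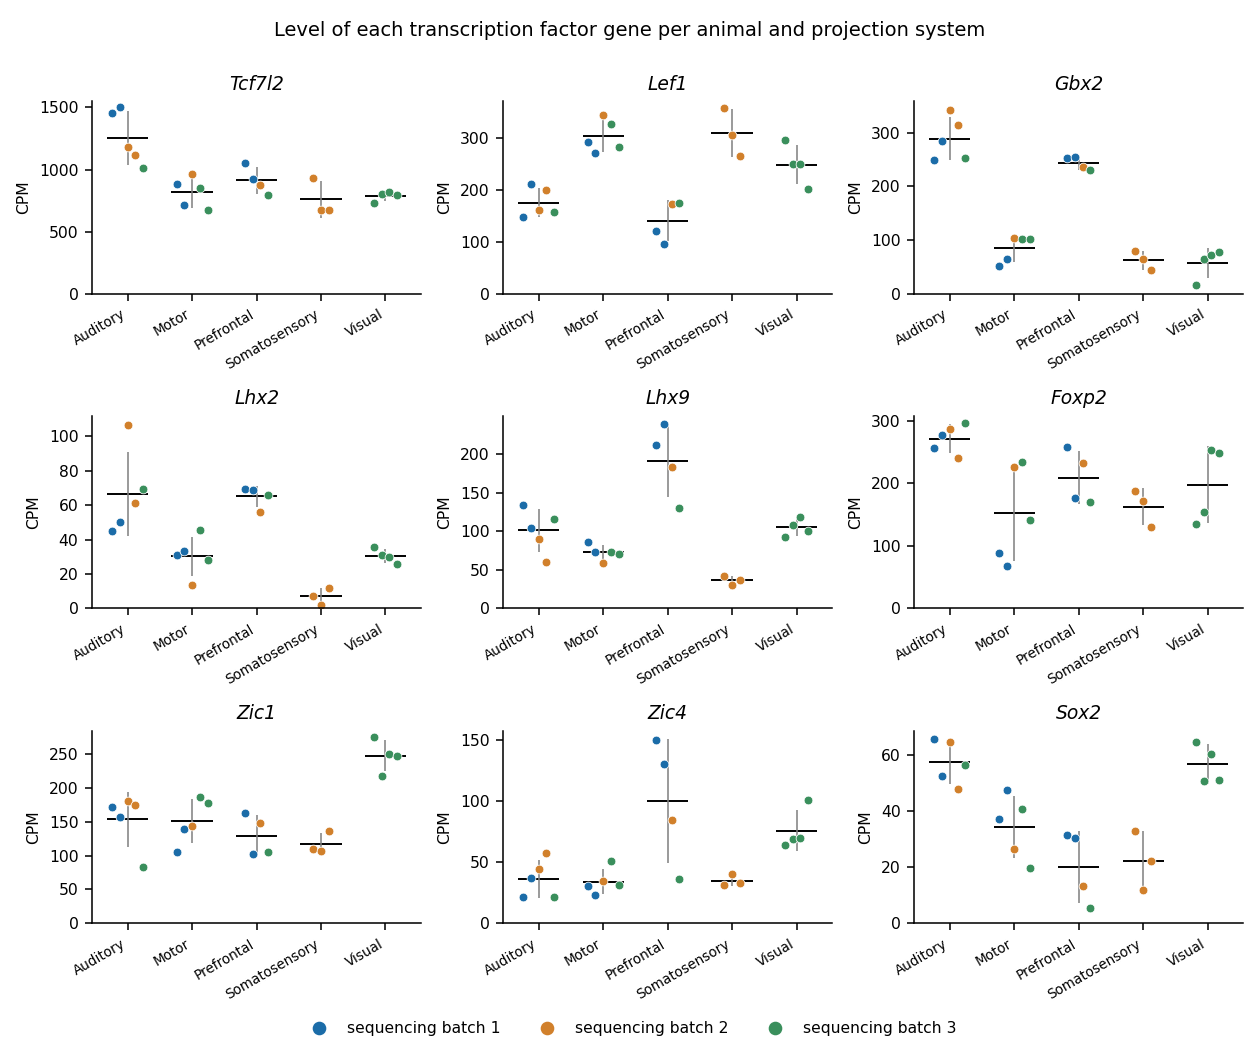
Level of each gene (CPM, linear axis from 0) in each of the 21 sums of an animal and system, coloured by sequencing batch, with the mean (black line) and SD (grey bar) of each system. Gbx2 is above 230 CPM in each auditory and prefrontal sum and at most 104 CPM in every other sum, and the 3 somatosensory sums are the lowest of all for Lhx2 and Lhx9.

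Tcf7l2 (chromosome 19, 55741820 to 55933654, plus strand, GRCm38) was found in nearly every neuron. At least 1 UMI was seen in 1971 of 1972 cells, and in 99.9% of cells after each cell had been thinned to 20000 UMIs. Gad1, a gene relay neurons should lack, had a UMI in 0.558% of cells. Auditory sums held 1452, 1505, 1179.5, 1115 and 1013 CPM, and motor sums 886, 712, 967, 852 and 669.9 CPM. Prefrontal sums held 1055, 924, 877 and 796 CPM, somatosensory sums 928, 672 and 676 CPM, and visual sums 732, 805, 818 and 798 CPM. The auditory sums were high, although the highest prefrontal sum exceeded the lowest auditory sum. Against the mean of the other systems, Tcf7l2 was higher in auditory neurons by 0.49 ± 0.09 (log2 fold ± SE, edgeR adjusted p = 0.00119). It passed in none of the other 4 systems. A comparison within 1 batch, here and below, sets a system only against the other systems sequenced in that batch. Somatosensory sums were in batch 2 alone and visual sums in batch 3 alone. Within batches 1, 2 and 3 alone the auditory difference was 0.71 ± 0.13, 0.35 ± 0.14 and 0.35 ± 0.12, each short of the threshold at edgeR adjusted p-values of 0.0512, 0.316 and 0.201. In pairs, auditory neurons exceeded motor (0.52 ± 0.11), somatosensory (0.60 ± 0.14) and prefrontal neurons (0.43 ± 0.12, adjusted p = 0.0359). The last of these failed in 8 of 21 fits that each left out 1 sum, namely auditory replicate 1, 2 or 3, motor replicate 1, prefrontal replicate 2, 3 or 4 or visual replicate 1 (adjusted p up to 0.11). Below the auditory level no neighbours in the order of means (prefrontal, motor, visual, somatosensory) passed the test, and their ranges overlapped.

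Lef1 (chromosome 3, 131110471 to 131224356, plus strand), the other Wnt effector, passed as higher in motor neurons and lower in prefrontal and auditory neurons. Somatosensory sums were as high as motor sums on average (309 and 304 CPM). Motor sums held 292, 271, 345, 327 and 282 CPM, somatosensory sums 358, 305 and 265 CPM, and visual sums 295, 249, 249 and 201 CPM. Auditory sums held 148, 211, 161, 199.5 and 158 CPM, and prefrontal sums 121, 95.1, 172 and 175 CPM. Motor and somatosensory sums all lay above all auditory and prefrontal sums, while the visual sums overlapped with both sides. The log2 fold against the other systems was 0.60 ± 0.12 in motor (edgeR adjusted p = 0.00493), -0.82 ± 0.14 in prefrontal (0.00046) and -0.46 ± 0.13 in auditory neurons (0.0278). It was 0.52 ± 0.18 in somatosensory neurons, which did not pass (edgeR adjusted p = 0.318), and motor minus somatosensory was 0.06 ± 0.20. Motor neurons differed from the rest within batches 1 (1.06 ± 0.19) and 3 (0.70 ± 0.15) and by 0.72 ± 0.19, short of the threshold, in batch 2, where they had 1 sum. The prefrontal difference was -1.07 ± 0.21, -0.66 ± 0.21 and -0.41 ± 0.20 within batches 1, 2 and 3, of which the first passed. For auditory neurons these values were 0.01 ± 0.20, -0.62 ± 0.16 and -0.60 ± 0.20, so there was no decrease in batch 1, where the comparison is with motor and prefrontal sums. Without the prefrontal sums of batch 1 the prefrontal value was -0.58 ± 0.16 (edgeR adjusted p = 0.0692). The auditory call was also lost without auditory replicate 1 (edgeR adjusted p = 0.0651), 3 (0.113), 4 (0.0598) or 5 (0.16). Of the 10 pairs 5 passed, the widest being motor against prefrontal neurons at 1.13 ± 0.16. The share of thinned cells with a Lef1 UMI was 90.6% ± 2.80 in motor and 92.6% ± 4.48 in somatosensory sums, 84.1% ± 9.53 in visual, 60.9% ± 5.57 in auditory and 57.3% ± 15.4 in prefrontal sums (SD, n = 5, 3, 4, 5 and 4). Without thinning, 85.6% of all cells had a UMI. The unnamed models Gm43352 (14.3 CPM) and Gm42449 (6.22 CPM) overlap Lef1, and since the strand used in counting is not stated, their reads cannot be told apart.

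Gbx2 (chromosome 1, 89927956 to 89931179, minus strand) separated the systems into 2 sets. Auditory sums held 249, 285, 343, 314 and 253 CPM and prefrontal sums 253, 256, 235 and 230.4 CPM. Motor sums held 51.5, 63.8, 104, 102 and 102 CPM, somatosensory sums 79.2, 64.4 and 43.3 CPM, and visual sums 15.6, 63.8, 71.5 and 77.1 CPM. Every auditory and prefrontal sum was above every sum of the other 3 systems. The log2 fold was 1.64 ± 0.22 in auditory (edgeR adjusted p = 6.62e-05) and 1.43 ± 0.24 in prefrontal neurons (0.000441). All 6 pairs between the sets passed, with folds of 1.57 ± 0.30 (motor against prefrontal, prefrontal higher) to 2.39 ± 0.37 (auditory above visual). The motor and prefrontal pair was lost without the prefrontal sums of batch 1 (edgeR adjusted p = 0.0702), without batch 1 (0.19), by sorting day (0.0563) and within batches 2 (0.461) and 3 (0.466), with prefrontal neurons higher by 1.13 to 1.44 in these fits. None of the 4 pairs within a set passed: auditory minus prefrontal was 0.16 ± 0.29 (adjusted p = 0.831), and a p above the threshold does not show that they are alike. Within batches 1, 2 and 3 the auditory fold was 1.11 ± 0.17, 1.45 ± 0.20 and 1.18 ± 0.51, and the prefrontal fold 1.02 ± 0.17, 0.85 ± 0.25 and 1.01 ± 0.51. The auditory values of batches 1 and 2 and the prefrontal value of batch 1 passed. Batch 1 held auditory, prefrontal and motor sums alone, at 267, 254 and 57.7 CPM on average. Each fold within it was therefore taken against the other high system and motor neurons. Without the prefrontal sums of batch 1 the prefrontal call just missed the threshold (edgeR adjusted p = 0.0529). Thinned cells with a Gbx2 UMI made up 77.6% ± 5.87 of auditory and 74.0% ± 3.97 of prefrontal sums, 46.7% ± 8.54 of motor, 38.4% ± 3.35 of somatosensory and 26.4% ± 9.29 of visual sums (SD, n = 5, 4, 5, 3 and 4). Without thinning, 62.8% of all cells had a UMI. A gene on the opposite strand, D130058E05Rik, overlaps Gbx2. It was at 53.0 ± 5.74 CPM in auditory and 63.1 ± 15.4 CPM in prefrontal sums and at 26.5 ± 11.4, 28.2 ± 8.65 and 31.2 ± 14.5 CPM in motor, somatosensory and visual sums, and reads of the pair cannot be told apart for lack of a stated counting strand.

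Lhx2 (chromosome 2, 38339281 to 38369733, plus strand) had the widest span of the 9 genes, a ratio of 9.53 between the highest and the lowest system mean. Somatosensory sums held 7.29, 1.71 and 11.9 CPM, resting on 18 to 173 counts. Auditory sums held 44.9, 50.1, 107, 61.2 and 69.5 CPM, and prefrontal sums 69.7, 68.9, 56.2 and 65.7 CPM. Motor sums held 31.1, 33.1, 13.5, 45.3 and 28.4 CPM, the highest of them just above the lowest auditory sum. Visual sums held 35.5, 31.2, 29.8 and 25.8 CPM, below all auditory and prefrontal sums. The somatosensory sums were below all 18 other sums, and the prefrontal sums were above all motor and visual sums. The log2 fold was -2.46 ± 0.47 in somatosensory (edgeR adjusted p = 0.0276), 1.38 ± 0.27 in auditory (0.00262) and 1.37 ± 0.29 in prefrontal neurons (0.00398). The somatosensory call was lost without auditory replicate 3 (adjusted p = 0.0675), prefrontal replicate 3 (0.0546), somatosensory replicate 1 (0.0677) or somatosensory replicate 2 (0.0929), with folds of -2.54 to -2.02. Within batch 2, the batch of all somatosensory sums, it was -2.43 ± 0.51 (adjusted p = 0.0657). The auditory fold was -0.02 ± 0.24 within batch 1, 2.19 ± 0.51 within batch 2 and 0.71 ± 0.29 within batch 3. None of these passed (adjusted p of 0.993, 0.0792 and 0.285), and the 3 low somatosensory sums are among the others in batch 2 alone. The prefrontal fold was 0.81 ± 0.23, 1.47 ± 0.59 and 0.60 ± 0.29 within batches 1, 2 and 3 and 1.17 ± 0.38 without the prefrontal sums of batch 1 (adjusted p = 0.15). Motor exceeded somatosensory neurons by 1.92 ± 0.51 with ranges apart, but this pair did not pass (edgeR adjusted p = 1). In that pair edgeR passed 0 of 17211 genes, 665 genes had an unadjusted p under 0.05, and DESeq2 passed 29 genes, Lhx2 among them (adjusted p = 0.0165). Thinned cells with an Lhx2 UMI were 6.46% ± 4.44 of somatosensory sums against 35.5% ± 7.78 of auditory and 40.6% ± 2.49 of prefrontal sums (SD, n = 3, 5 and 4), and without thinning 33.6% of all cells had one.

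Lhx9 (chromosome 1, 138825186 to 138848577, minus strand), the other LIM-homeobox gene, was higher in prefrontal and lower in somatosensory neurons. Prefrontal sums held 212, 239, 183 and 129.8 CPM and somatosensory sums 41.9, 30.9 and 36.9 CPM. Auditory sums held 135, 105, 90.7, 60.4 and 116 CPM, motor sums 86.1, 73.9, 59.6, 73.3 and 71.1 CPM, and visual sums 93.1, 108, 119 and 101 CPM. The somatosensory sums were the lowest of all 21, while the lowest prefrontal sum was below the highest auditory sum. The log2 fold was 1.25 ± 0.13 in prefrontal (edgeR adjusted p = 3.05e-06) and -1.25 ± 0.19 in somatosensory neurons (0.00532). The prefrontal fold was 1.19 ± 0.18, 1.72 ± 0.24 and 0.42 ± 0.18 within batches 1, 2 and 3, the last of which did not pass, and it passed at 1.18 ± 0.17 without the prefrontal sums of batch 1. The somatosensory fold was -1.29 ± 0.20 within batch 2 and passed there. It was lost without somatosensory replicate 2 (-1.15 ± 0.22, edgeR adjusted p = 0.0662). Of the 10 pairs 5 passed, the widest being prefrontal above somatosensory neurons by 2.00 ± 0.21. Prefrontal neurons exceeded visual neurons, next in order, by 0.75 ± 0.20 (adjusted p = 0.0469), but this held in 4 of 21 fits that each left out 1 sum, those without auditory replicate 1 or 4, prefrontal replicate 4 or somatosensory replicate 2 (adjusted p up to 0.146 in the rest). Of thinned cells, 68.1% ± 7.85 in prefrontal and 30.3% ± 1.82 in somatosensory sums had a UMI (SD, n = 4 and 3), and without thinning 61.4% of all cells had one.

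**Figure D2:**
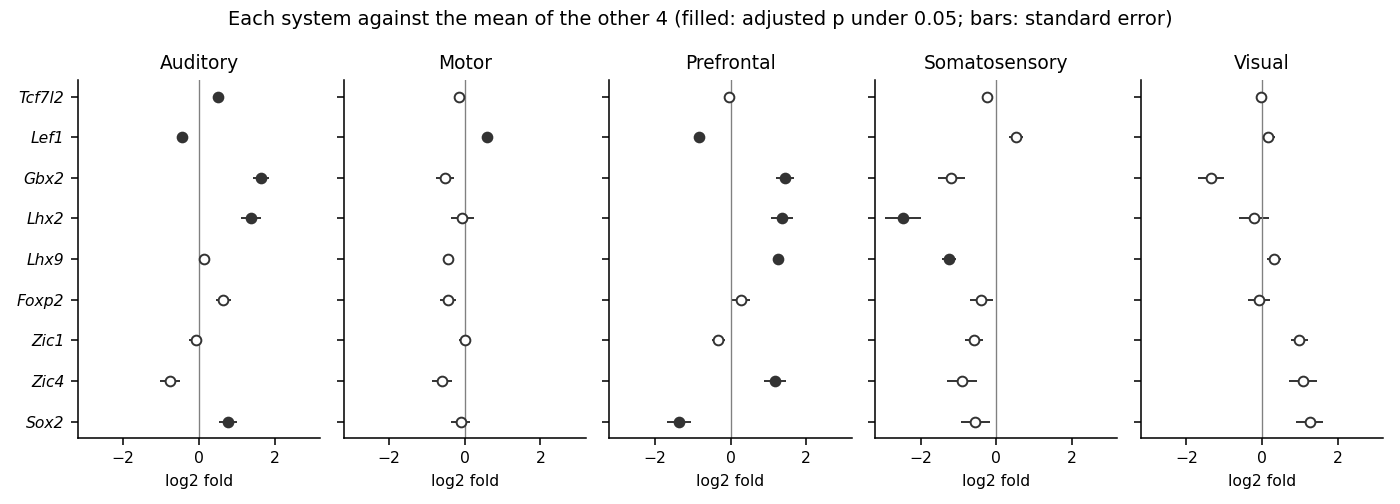
Log2 fold of each gene in a system relative to the average of the remaining systems (point) with its standard error (line) from the fit of all genes; filled points have an adjusted p under 0.05. Gbx2 and Lhx2 are higher in auditory (1.64 and 1.38) and prefrontal neurons (1.43 and 1.37), Lef1 is lower in both, and no visual point is filled.

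Foxp2 (chromosome 6, 14901349 to 15441977, plus strand), whose forkhead protein marks many thalamic nuclei, was spread widely within systems. It ranged from 240.3 to 296 CPM in auditory sums (median 277), 68.3 to 234 CPM in motor sums (median 142), 169.5 to 257 CPM in prefrontal, 129.7 to 187 CPM in somatosensory and 134 to 253 CPM in visual sums. The auditory range overlapped with the prefrontal and visual ranges and lay above all motor and somatosensory sums. The log2 fold in auditory neurons was 0.65 ± 0.20 and narrowly missed the threshold (edgeR adjusted p = 0.0531). It passed with RLE in place of TMM normalization (adjusted p = 0.0495) and in 7 of 21 fits that each left out 1 sum. One pair passed, auditory above motor neurons by 0.87 ± 0.25 (adjusted p = 0.0359). That pair gave 0.36 ± 0.25 without batch 1, the batch of the 2 lowest motor sums, and 0.16 ± 0.24 within batch 2 and 0.63 ± 0.37 within batch 3. It also failed without auditory replicate 1, 2, 3 or 5 or motor replicate 1, 2 or 5, with folds of 0.65 to 0.90. In motor replicates 1 and 2, both of batch 1, the authors' cluster Mot_3 made up 59.5% and 75.6% of cells, against 7.88% to 26.5% in motor replicates 3 to 5. Its part in the result was not tested.

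Zic1 (chromosome 9, 91358058 to 91365810, minus strand), a zinc-finger gene of the dorsal neural tube, was highest in visual neurons. Visual sums held 275, 218, 251 and 248 CPM. Auditory sums held 172, 158, 181, 175 and 82.9 CPM, motor sums 106, 139, 144, 187 and 178 CPM, prefrontal sums 162, 102, 148 and 105 CPM, and somatosensory sums 109, 107 and 136 CPM. All visual sums were above all 17 others. The log2 fold in visual neurons was 0.99 ± 0.23, which did not pass in the fit of all sums (edgeR adjusted p = 0.0972). It did pass within batch 3, which holds all visual sums (1.10 ± 0.11, adjusted p = 0.0014), with DESeq2 (0.98 ± 0.22, adjusted p = 0.00189) and without batch 1 (1.10 ± 0.20, adjusted p = 0.0232). In that visual contrast 4 of the 9 genes had an unadjusted p under 0.05 with edgeR, beside 1309 of all 17211 genes. DESeq2 called 3 of the 9, beside 186 of all genes. The pair of prefrontal and visual neurons passed (-1.05 ± 0.26, adjusted p = 0.0282), and it failed without auditory replicate 5, prefrontal replicate 2 or 4 or visual replicate 1 or 4 (adjusted p up to 0.181). The other systems, in the order auditory, motor, prefrontal and somatosensory, overlapped with their neighbours and none of these neighbours passed.

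Zic4 lies beside Zic1 (chromosome 9, 91362413 to 91389348, plus strand), and the 2 genes overlap by 3398 bases on opposite strands. Prefrontal sums held 150.04, 130.1, 84.1 and 36.5 CPM. Visual sums held 63.6, 69.2, 69.6 and 101 CPM, auditory sums 21.1, 37.0, 44.2, 57.7 and 21.8 CPM, motor sums 30.5, 23.3, 34.1, 50.7 and 31.5 CPM, and somatosensory sums 31.6, 40.2 and 32.8 CPM. The 2 prefrontal sums of batch 1 were above all others, and the prefrontal sum of batch 3 lay inside the auditory and motor ranges. The log2 fold in prefrontal neurons was 1.18 ± 0.29 (edgeR adjusted p = 0.011), and it was 2.31 ± 0.27, 1.08 ± 0.26 and -0.18 ± 0.32 within batches 1, 2 and 3. Without the prefrontal sums of batch 1 it was 0.31 ± 0.27 (adjusted p = 0.773). Visual sums exceeded all auditory, motor and somatosensory sums, with a log2 fold of 1.08 ± 0.37 against the other systems that did not pass (adjusted p = 0.405), and within batch 3 the fold was 1.26 ± 0.21 and passed (adjusted p = 0.0208). Zic1 did not share the prefrontal pattern: its log2 fold there was -0.32 ± 0.18 (adjusted p = 0.317). The difference between the 2 genes was not itself tested.

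Sox2 (chromosome 3, 34650405 to 34652461, plus strand), best known from neural progenitors, was lower in prefrontal neurons. Prefrontal sums held 31.6, 30.4, 13.2 and 5.43 CPM and somatosensory sums 33.0, 11.9 and 22.3 CPM. Auditory sums held 65.8, 52.5, 64.7, 47.8 and 56.8 CPM, visual sums 65.0, 50.9, 60.6 and 51.2 CPM, and motor sums 37.4, 47.6, 26.5, 41.0 and 19.7 CPM. All auditory and visual sums were above all sums of the other 3 systems. The prefrontal log2 fold was -1.36 ± 0.32 (edgeR adjusted p = 0.00766), with -0.71 ± 0.27, -1.30 ± 0.52 and -3.10 ± 0.47 within batches 1, 2 and 3, of which the last passed. It was lost without prefrontal replicate 3 (-1.26 ± 0.38, adjusted p = 0.0544) or 4 (-0.96 ± 0.30, adjusted p = 0.0538) and passed at -2.05 ± 0.38 without the prefrontal sums of batch 1. The auditory log2 fold of 0.78 ± 0.24 passed narrowly (adjusted p = 0.0491) and held in 6 of 21 fits that each left out 1 sum, those without auditory replicate 2, motor replicate 4, prefrontal replicate 1, 2 or 4 or somatosensory replicate 1 (adjusted p up to 0.32 in the rest). The visual fold of 1.25 ± 0.36 did not pass (adjusted p = 0.25), although within batch 3 it was 1.45 ± 0.25 and did (adjusted p = 0.0221). In pairs, prefrontal neurons were below auditory (1.71 ± 0.34 for auditory minus prefrontal) and visual neurons (-2.09 ± 0.44 for prefrontal minus visual). Sox2 lies inside the longer noncoding gene Sox2ot on the same strand, and how the authors' counting shared reads between them is not stated. Sox2ot was at 1.49 ± 2.08 CPM in prefrontal sums and at 5.51 to 12.7 CPM on average in the other systems.

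The authors had divided each system into clusters, and these were set beside the levels as a description with no test, because the clusters were made from the same counts. In the prefrontal system, cluster Pfr_3 held 81.2% of the cells of replicate 1 and 82.4% of replicate 2, both from batch 1, and none of replicates 3 and 4. Cluster and batch therefore cannot be told apart there. Zic4 was at 155 ± 15.7 CPM in Pfr_3 (SD over 2 sums), at 64.4 ± 22.1 CPM in Pfr_2, which all 4 animals filled, and at 23.3 ± 25.6 CPM in Pfr_1 (replicates 3 and 4). In Pfr_4, where replicates 3 and 4 had at least 5 cells, it was 144 CPM in replicate 3 and 43.8 CPM in replicate 4. Within Pfr_2, Zic4 was 65.3, 83.2, 76.1 and 33.2 CPM in replicates 1 to 4, a narrower spread than over all prefrontal cells, from 7, 8, 94 and 25 cells. Gbx2 in the same cluster was 311, 262, 252 and 204 CPM. Gbx2 was low in Pfr_1 (93.2 ± 33.9 CPM) and high in Pfr_3 (263 ± 7.38) and Pfr_4 (299.7 ± 36.4).

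**Figure D3:**
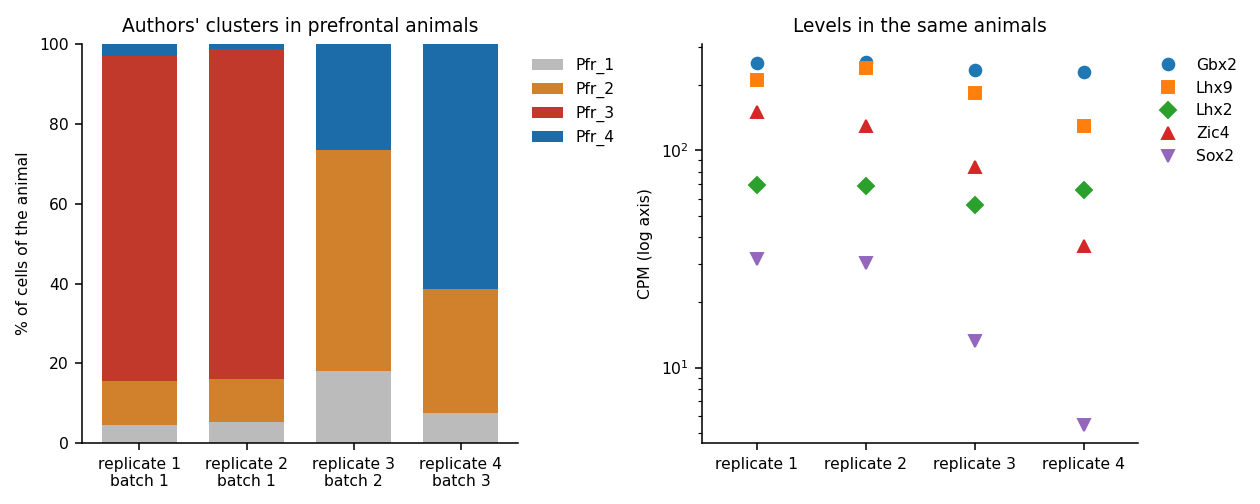
Left, share of each prefrontal animal's cells in the authors' 4 prefrontal clusters (%, axis from 0); right, level of 5 genes in the same 4 sums (CPM, log axis). Pfr_3 fills 81.2% and 82.4% of replicates 1 and 2 and is absent from replicates 3 and 4, Zic4 goes from 150.04 to 36.5 CPM and Sox2 from 31.6 to 5.43 CPM, while Gbx2 stays between 230.4 and 256 CPM.

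Within a system, the highest cluster mean of a gene was 1.22 times (Zic1 in visual neurons) to 15.0 times (Lhx2 in somatosensory neurons) the lowest. Tcf7l2 was 415 ± 39.1 CPM in Mot_1 and 399 ± 59.7 CPM in Som_1, beside 1145 ± 87.5 CPM in Mot_2 and 1192 ± 177 CPM in Som_2 (SD over 5, 3, 4 and 3 sums), and the ranges did not overlap. In the same clusters Foxp2 was at 76.4 ± 33.2 and 95.4 ± 13.7 CPM against 302 ± 43.3 and 291 ± 33.4 CPM. Mot_3 and Som_3 did not follow this split, with Tcf7l2 at 865 and 675 CPM but Foxp2 at 94.2 and 83.8 CPM. The median UMIs per cell were 140009 in Mot_1 and 153090 in Som_1, against 75654 in Mot_2 and 86981 in Som_2. In Mot_3 and Som_3 they were 141446 and 95114.5. The part of depth in these levels was not tested. Over the 17 clusters the Pearson correlation of log2(CPM + 1) was 0.83 for Tcf7l2 and Foxp2. Clusters of the same system share libraries. Over the 1972 cells the Spearman correlation of Tcf7l2 and Foxp2 was 0.28, or 0.25 after thinning.

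Lef1 was at 48.1 ± 33.8 CPM in Aud_3, where Gbx2 (376 ± 64.5), Lhx2 (109 ± 51.3) and Lhx9 (161 ± 47.3 CPM) had their highest auditory means. Aud_1 was the reverse, with Lef1 at 233 ± 45.2, Gbx2 at 204 ± 98.6, Lhx2 at 45.3 ± 18.8 and Lhx9 at 48.2 ± 13.9 CPM. For Lef1 and Lhx9 the ranges of the 2 clusters were apart, whereas for Gbx2 and Lhx2 they overlapped. Across the 17 clusters Lef1 was correlated with Lhx9 at -0.71, with Lhx2 at -0.64 and with Gbx2 at -0.63, while Lhx2 and Lhx9 were correlated at 0.77. In visual neurons Gbx2 was 122 ± 44.9 CPM in Vis_3 and 26.1 ± 16.2 and 27.2 ± 17.02 CPM in Vis_1 and Vis_2. In somatosensory neurons Lhx2 was 28.0 ± 4.55 CPM in Som_3 but 1.87 ± 3.23 and 3.93 ± 3.70 CPM in Som_1 and Som_2, and Sox2 was 46.3 ± 14.6 CPM in Som_3 and 9.46 ± 3.31 CPM in Som_1. Zic4 in motor neurons was 78.9 ± 42.7 CPM in Mot_4 and 19.8 ± 12.8 CPM in Mot_3, with overlapping ranges.

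**Figure D4:**
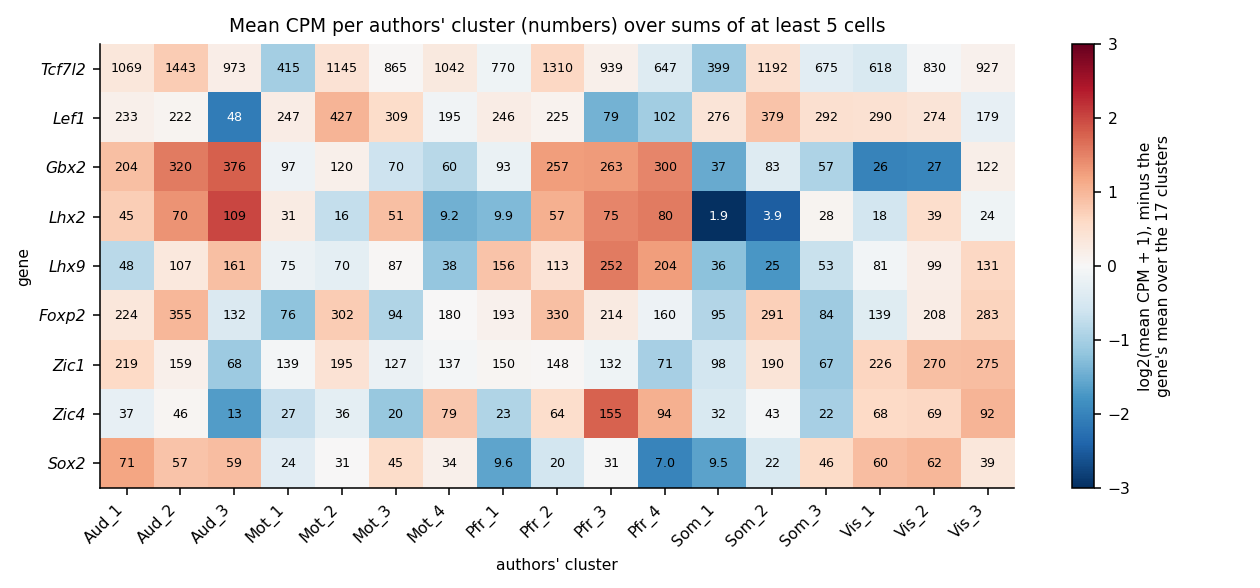
Mean level of each gene in each of the authors' 17 clusters within systems (number, CPM over sums of at least 5 cells); colour is log2(mean CPM + 1) minus the gene's own mean over clusters. Lef1 is lowest in Aud_3, Tcf7l2 in Som_1 and Mot_1, and Zic4 highest in Pfr_3.

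Of the authors' 9 clusters over all systems together, cluster 8 (65 cells, auditory sums) had Lef1 at 41.4 ± 27.9 and Zic1 at 44.9 ± 41.0 CPM beside Gbx2 at 379.8 ± 54.6 and Lhx2 at 108 ± 54.4 CPM (SD, n = 5). Cluster 2 (312 cells) held mostly motor and somatosensory cells and had Lef1 at 383 ± 56.0 and Tcf7l2 at 1225 ± 124 CPM with Lhx2 at 7.72 ± 8.39 CPM (SD, n = 8). Cluster 1 (174 cells) had Tcf7l2 at 459 ± 94.4 CPM (SD, n = 8). In that cluster Gbx2 over all cells was 98.5 CPM in motor and 36.6 CPM in somatosensory cells. In cluster 5 (331 cells) it was 273 CPM in auditory and 176 CPM in prefrontal cells.

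Single neurons usually held several of the 9 genes. After thinning, 565 of 1972 cells (28.7%) had a UMI of 5 of them, 8 cells had all 9 and 5 cells had 1. Zic1 and Zic4 were found in the same thinned cell in 14.5% of auditory, 20.04% of motor, 30.2% of prefrontal, 17.2% of somatosensory and 34.5% of visual cells. The product of their separate shares was 13.1%, 19.003%, 30.5%, 16.6% and 34.6%, so the ratio was 0.99 to 1.11. The ratio was 0.95 to 1.17 for Lhx2 and Lhx9 and 1.01 to 1.19 for Gbx2 and Foxp2 over the same 5 systems. For Gbx2 and Calb2 it was 0.90 in motor and 1.21 in visual cells, and 1.498 in somatosensory cells on 9 cells with both.

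A further comparison used 3 genes that grade thalamic relay neurons, Tnnt1, Necab1 and Calb2. Cells were classed by whichever of these anchors had the highest count, which gave 756, 532 and 611 cells, and 73 cells had no single leading anchor. The classes were compared within animals, over sums of at least 5 cells. Between Calb2 and Tnnt1 cells 3 of the 9 genes passed, beside 12.1% of the 12035 genes tested. Lhx9 was higher in Calb2 cells by 0.93 ± 0.17 (log2 fold ± SE, edgeR adjusted p = 0.000101) at 134 ± 64.8 against 61.7 ± 30.4 CPM (SD, n = 18 and 20 sums), and in 15 of 17 animals with both classes. Lef1 was lower by 0.90 on the same scale (-0.90 ± 0.15, adjusted p = 2.72e-05), at 163 ± 75.2 against 294 ± 51.5 CPM, and was above the Tnnt1 level in 1 of 17 animals. Zic1 was lower too (-0.51 ± 0.13, adjusted p = 0.00706), at 142 ± 63.7 against 177 ± 54.4 CPM, with Calb2 cells above in 4 of 17 animals. Fitted by system, the Zic1 difference was -1.10 ± 0.22 in auditory, -0.33 ± 0.22 in motor, -0.22 ± 0.29 in prefrontal and -0.06 ± 0.24 in visual neurons. Only the auditory value passed. With system and batch in place of the animal as block, Zic1 missed the threshold (-0.44 ± 0.16, adjusted p = 0.054). Sox2 did not pass (-0.67 ± 0.27, adjusted p = 0.0987), with Calb2 cells above in 3 of 17 animals.

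Necab1 cells, between the other two in the known grading, were compared with the mean of both, and 2 of the 9 genes passed (7.01% of all genes did). Lhx2 was higher by 1.30 ± 0.33 (edgeR adjusted p = 0.00872). It was at 64.8 ± 31.3 CPM in Necab1, 23.3 ± 18.6 CPM in Tnnt1 and 45.6 ± 39.2 CPM in Calb2 cells (SD, n = 20, 20 and 18). The Calb2 mean has no somatosensory sums, whereas the other means do. Mean Lhx2 in Calb2 and Necab1 cells was 0.609 and 57.5 CPM in motor, 77.6 and 100 CPM in auditory and 31.3 and 46.1 CPM in visual neurons. In prefrontal neurons Calb2 cells were above Necab1 cells, at 76.3 and 65.4 CPM. Tcf7l2 was higher in Necab1 cells by 0.22 ± 0.06 (adjusted p = 0.0191). That call failed without motor replicate 4 (adjusted p = 0.0506), prefrontal replicate 3 (0.0629) or visual replicate 4 (0.0623), and when a cell's leading anchor had to exceed the second 2 times (0.20 ± 0.09, adjusted p = 0.18).

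**Figure D5:**
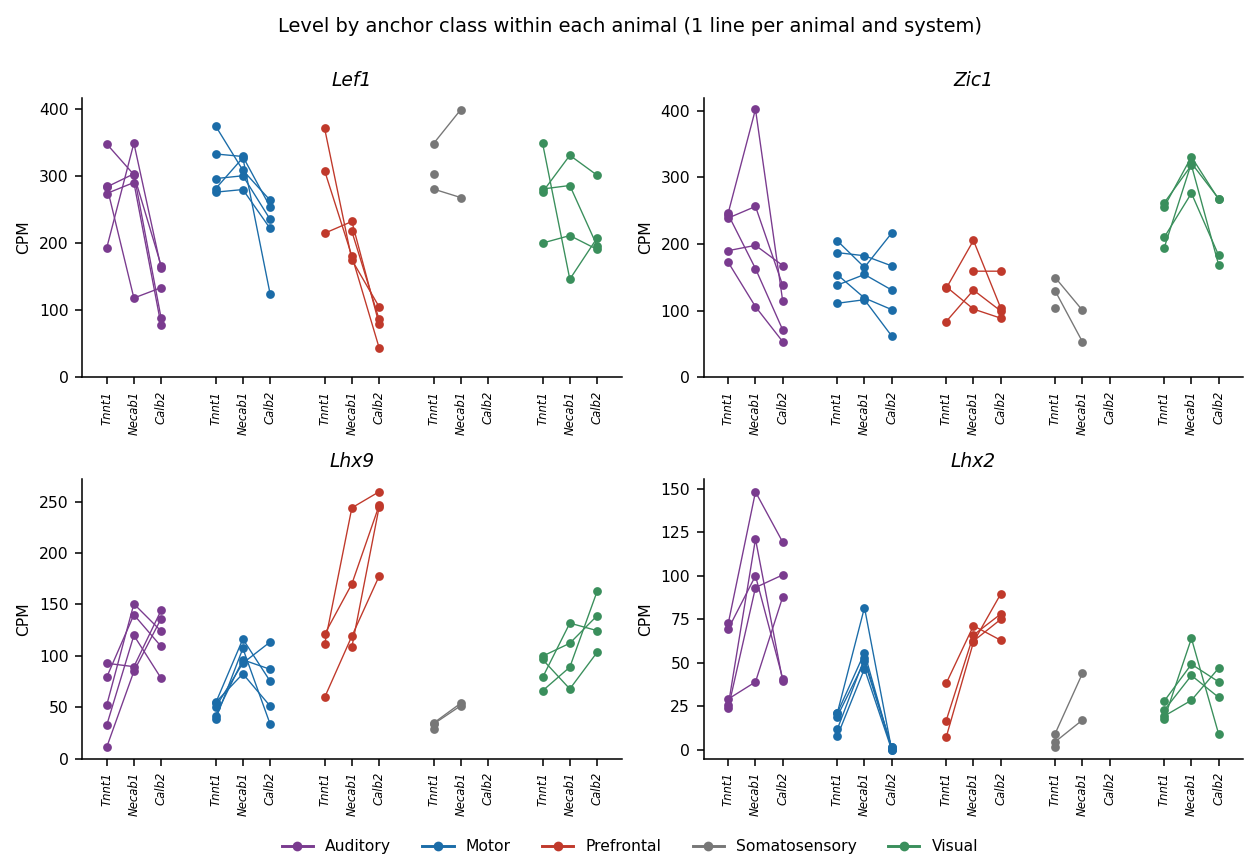
Level of 4 genes (CPM, linear axis) by anchor class, 1 line per animal and system, coloured by system. Lef1 is lower in Calb2 than in Tnnt1 cells in 16 of 17 animals, and Lhx2 in motor Calb2 cells is at or near 0 in all 5 animals while it is 62.9 to 89.5 CPM in prefrontal Calb2 cells.

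Whether the step from Tnnt1 to Calb2 cells differed between systems was tested for auditory, motor, prefrontal and visual neurons, which had 5, 5, 3 and 4 animals with both classes. Of 11104 genes 0.378% passed, and of the 9 genes Lhx2 alone (edgeR adjusted p = 0.00435). A class names the leading anchor of a cell and not its level. Over all cells Calb2 was at 7.03 to 63.1 CPM in motor, 549 to 1543 CPM in auditory, 209 to 1794 CPM in prefrontal and 199 to 599 CPM in visual sums. Whether Calb2 cells of different systems are the same kind of cell was not tested. Motor Calb2 cells held 3, 1, 0, 0 and 1 Lhx2 counts in sums of 8, 10, 15, 7 and 8 cells. A count of 0 allows up to 1.84 CPM in the third and 5.16 CPM in the fourth of these sums, for counting error alone. Motor Tnnt1 cells were at 11.7, 21.03, 7.74, 20.98 and 19.1 CPM, above the Calb2 value in each animal, and the fitted difference was -4.69 ± 0.74 (adjusted p = 0.00682; 0.324% of genes passed within motor neurons). Prefrontal neurons went the other way, with Calb2 cells at 78.0, 89.5 and 62.9 CPM and Tnnt1 cells at 16.9, 7.32 and 38.2 CPM in replicates 2, 3 and 4. The fitted difference was 2.22 ± 0.70 and did not pass on its own (adjusted p = 0.0718; 5.12% of genes passed). In auditory and visual neurons it was 0.85 ± 0.52 and 0.34 ± 0.57, neither of which passed. With class sums of at least 10 cells, which leaves 2 of the 5 motor Calb2 sums, the motor difference was -6.30 ± 1.158 (adjusted p = 0.215) and Lhx2 did not pass the test between systems. Lef1 was lower in Calb2 cells within auditory (-1.18 ± 0.22; 3.39% of all genes and 3 of the 9 passed) and prefrontal neurons (-2.01 ± 0.29), and by values that did not pass in motor (-0.54 ± 0.22) and visual neurons (-0.28 ± 0.24). Its difference between systems did not pass (adjusted p = 0.0919). The other 2 auditory calls were Zic1 (-1.10 ± 0.22) and Lhx9 (1.37 ± 0.35), and that of Lhx9 was lost without auditory replicate 3, 4 or 5 (adjusted p of 0.11, 0.0811 and 0.0934). Within visual neurons none of the 9 genes passed (0.549% of all genes did), none had an unadjusted edgeR p under 0.05, and DESeq2 called 0. Of all 11104 genes 875 had an unadjusted p under 0.05 with edgeR, and DESeq2 called 277.

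Other genes of the same pathways were read from 4 lists. Of 38 tested partners of the Wnt pathway and TCF proteins 7 passed the F test over systems, of 10 LIM cofactors 5, of 7 tested paralogues of the 9 genes 3, and of 27 other diencephalic transcription factors 11 (12.6% of all genes did). Of the 10 LIM cofactors, 3 were higher and none lower in auditory neurons, 2 were lower and none higher in motor neurons, and prefrontal neurons had 3 higher and 1 lower (over all genes, 7.97% passed in auditory, 3.91% in motor and 9.17% in prefrontal neurons). Ldb2, the cofactor that bridges LIM-homeobox proteins, was higher in auditory (3.88 ± 0.55) and prefrontal (4.28 ± 0.64) and lower in motor neurons (-3.60 ± 0.80). Ssbp3, which stabilises Ldb complexes, was also higher in auditory (0.60 ± 0.14) and prefrontal neurons (0.82 ± 0.15), and Lmo4, a LIM-only competitor for Ldb proteins, was lower in prefrontal neurons (-1.23 ± 0.25).

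Wnt partners were lower in 5 and higher in 0 of 38 cases in auditory neurons, higher in 2 in motor and in 3 in prefrontal neurons, with none lower in either, and none passed in somatosensory or visual neurons. These are 13.2% of the list in auditory (7.97% of all genes), 5.26% in motor (3.91%) and 7.89% in prefrontal neurons (9.17%), the last 2 near the share over all genes. The ligand Wnt9b was lower in auditory (-2.93 ± 0.42) and higher in motor neurons (1.31 ± 0.30), and the ligand Wnt3 was higher in motor neurons (0.56 ± 0.12). Nkd1, a feedback inhibitor of the pathway, was lower in auditory (-1.89 ± 0.32) and higher in prefrontal neurons (2.01 ± 0.28). Of the 7 paralogues, 1 was higher and 3 were lower in auditory neurons, and 2 were higher in prefrontal neurons (57.1% and 28.6% of the list, beside 7.97% and 9.17% of all genes). Zic5 was lower in auditory (-2.69 ± 0.58) and higher in prefrontal neurons (3.71 ± 0.45), and Foxp1 had the same directions (-0.88 ± 0.18 and 1.43 ± 0.17). Nr2f2, a nuclear receptor of the developing brain, was higher in motor (2.02 ± 0.23) and somatosensory neurons (2.28 ± 0.35) and lower in prefrontal (-2.41 ± 0.30) and visual neurons (-1.85 ± 0.35). Of the 27 other transcription factors, 3 were higher and 3 lower in auditory, 4 higher in motor, and 1 higher and 7 lower in prefrontal neurons (22.2%, 14.8% and 29.6% of the list, beside 7.97%, 3.91% and 9.17% of all genes). The median log2 fold in auditory and prefrontal neurons was -0.04 and 0.003 for the Wnt partners, -0.05 and 0.54 for the LIM cofactors, -0.88 and -0.10 for the paralogues and 0.001 and -0.49 for the other factors, beside -0.01 and 0.02 over all genes.

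The genes whose level over the 17 clusters was most like each of the 9 were found by the Pearson correlation of log2(mean CPM + 1) among 8877 genes with at least 10 CPM on average. They are a description, since clusters of 1 system share libraries and can differ in UMIs per cell. Gnb2, a G protein beta subunit, was most like Tcf7l2 (0.93), the ephrin receptor Epha4 most like Lef1 (0.96) and the cofactor Ldb2 most like Gbx2 (0.88). Rp9 was most like Lhx2 (0.87) and Nek7, a mitotic kinase, most like Lhx9 (0.93), and Lhfpl5 was second for both LIM-homeobox genes (0.87 and 0.92). The phosphodiesterase Pde1b and the neurotrophin receptor Ntrk2 were nearest to Foxp2 (0.90 and 0.89). Wdr82 was nearest to Zic1 (0.87), Cln8 to Zic4 (0.82) and Rnf166 to Sox2 (0.87). Of the 27 genes in the first 3 places for the 9 genes, 10 were also in the first 3 places by Spearman correlation.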

How the data were processed

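The authors deposited whole-number counts of UMIs per gene and cell, not normalized. Their table of cells gives the plate, projection system, animal, sort date and their clusters. Sequencing batch was taken from the sample labels and assigned to cells by plate. The submitters' processing notes name cutadapt 1.16, Picard 1.12, STAR 2.5.3 and the build mm10; the strand and gene annotation used in counting are not stated. Coordinates come from GENCODE genes on GRCm38, which is the same assembly as mm10.

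Here the cells of an animal and system were added up (at least 10 cells a sum). Each sum was read as CPM, and edgeR 4.0.16 in R 4.3.3 (filterByExpr, TMM, trended dispersion, quasi-likelihood tests, batch as a covariate) was run on the counts of all genes with Benjamini-Hochberg adjustment. DESeq2 1.42.0 was the alternative. Anchor classes had at least 5 cells a sum, with the animal and system as a block, the same animal giving each class. Shares of cells with a UMI came from cells thinned to 20000 UMIs; counts of UMIs carry counting error, and genes near 1 UMI per cell are missed often. No doublets were called; 34 cells with 3 or more markers of another cell type were kept and left out in an alternative. The script was tested on simulated data. Named genes are the 9 genes, the 3 most like each, and up to 4 that passed per list and contrast (largest fold, mean of at least 5 CPM). The genes, lists and tests were chosen with earlier results of these data known.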

Additional observations from a re-analysis of the deposited data

Results flagged for a closer look

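Within systems, 36 groups of 4 or 5 sums were searched for a sum far from the rest by Dixon's criterion, which chance meets in about 1 in 20 groups, and 2 met it. Zic1 was at 82.9 CPM in auditory replicate 5 and at 158 to 181 CPM in the other 4 auditory sums. Zic4 was at 101 CPM in visual replicate 4 and at 63.6 to 69.6 CPM in the other 3 visual sums. Auditory replicate 5 was the 1 auditory sum of batch 3.

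The difference of Lhx2 between Calb2 and Tnnt1 cells was not the same in all systems (edgeR adjusted p = 0.00435 for the interaction). Calb2 cells held more Lhx2 than Tnnt1 cells in 3 of 3 prefrontal animals and less in 5 of 5 motor animals.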

How the results depend on the processing

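Over 36 fold changes and 1198 alternative fits, 1030 kept direction and side of the threshold, 146 lost the call, 19 gained it and 3 reversed, all within a single batch: Lef1 in auditory neurons was 0.0147 and Lhx2 -0.0199 in batch 1, and Zic4 in prefrontal neurons was -0.18 in batch 3. A fit within 1 batch compares a system only with the other systems of that batch, so these are not the comparison made over all sums. In batch 1 auditory neurons were set against motor and prefrontal neurons alone. Lef1 averaged 179 CPM there in auditory, 281 in motor and 108 in prefrontal sums, and Lhx2 47.5, 32.1 and 69.3 CPM. The cause of the 3 reversals was not tested further.

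Among systems 8 of the 9 genes passed, but 4 within batch 2, 3 within batch 3 and 5 without batch 3. The 14 calls against the other systems became 26 with no filter on low counts, 8 with sums per sort date, and 9, 4 and 8 within batches 1, 2 and 3. The 29 pair calls became 49 and 18 under those first settings, 19, 16 and 17 without batch 1, 2 or 3, and 9, 5 and 8 within them. These fits use fewer samples or other genes. The share of all genes that passed in each of them is not given here. The counts alone therefore do not show a change particular to the 9 genes. Without the prefrontal sums of batch 1, chosen after seeing the data, the counts were 8, 11 and 22. The 2 calls for Necab1 cells became 1 when the leading anchor had to exceed the second 2 times. The interaction had 1 call, 2 with DESeq2 or no filter, and 0 with class sums of at least 10 cells. Leaving out each sum in turn gave 7 to 9 genes among systems, 11 to 15 calls against the other systems, 23 to 31 pair calls, 3 in every fit for Calb2 against Tnnt1 cells, 1 to 2 for Necab1 cells and 1 to 2 for the interaction, where 2 arose without auditory replicate 4. Where 1 sum was left in a system and batch it is assumed to vary like the others. By Spearman correlation 10 of the 27 likest genes stayed in the first 3 places.

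No paired analysis was possible because the labels number no replicates across systems and only 1 animal ID occurs in 2 of them. For the anchor classes, the fit with no replicate block lost the Zic1 call (-0.44 ± 0.16, edgeR adjusted p = 0.054). Somatosensory and visual sums each came from 1 batch, so their batch adjustment rests on the auditory, motor and prefrontal sums.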
